A study of Sus scrofa with 7 samples.

Results

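Proteoglycans of the cardiac matrix were examined in pig myocardium through 10 genes chosen by symbol out of 20653 genes in the deposited table. They were BGN, DCN and ASPN (class I small leucine-rich proteoglycans), LUM, FMOD, PRELP and OMD (class II), OGN (class III), VCAN and HSPG2. Where a gene had several transcript rows, the one with the most normalized counts on average was used. All 10 passed the filter on low values (10 normalized counts or more in 3 or more libraries) and entered the test with 15651 other genes. The tissue was anteromidventricular myocardium of male farm pigs, taken 14 weeks after an infarction of the left circumflex artery. Both groups were treated with AAV5, an adeno-associated viral vector that brings a gene into tissue: the 3 pigs labelled hrLuc were given luciferase, a reporter enzyme, and the 4 labelled S100a1 were given human S100A1, which encodes a calcium-binding protein of cardiomyocytes. All 7 animals were therefore infarcted and vector-treated, and no uninfarcted or untreated heart was analysed here. The sources used here do not state the promoter of the vectors, the cells that took them up or the age of the pigs.

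Small leucine-rich proteoglycans are secreted proteins with a curved core of leucine-rich repeats that lies along collagen fibrils, sets their spacing and diameter and holds growth factors near them. Class I members carry chondroitin or dermatan sulphate chains (asporin lacks them), and several class II members carry keratan sulphate. Versican, the VCAN product, is a large chondroitin sulphate proteoglycan that binds hyaluronan in loose provisional matrix. Perlecan, the HSPG2 product, is a heparan sulphate proteoglycan of basement membranes around cardiomyocytes and vessels. In the heart the fibril-binding members are known mainly as products of fibroblasts, and they rise in scar tissue after infarction.

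The libraries held 28679324 to 38409552 reads with 1 transcript row per gene, and the members held 353 (FMOD) to 74807 (HSPG2) reads in a library. For the tissue label, cardiomyocyte markers were read, whose 10 tested genes summed to between 4486320 and 5941690 normalized counts. The gene TTN alone held 2569500 to 3842610 of them. No other tissue or cutoff was set beside these sums, so they do not check the region sampled. Pig S100A1 was at 6568 to 9125 normalized counts in hrLuc and at 4429 to 6804 in S100a1, with a log2 fold change of -0.39 ± 0.16 and an adjusted p of 0.577 (limma). The sources used here do not say whether reads of the human transgene were counted on it, so it does not check the labels, and each direction below rests on them. By their titles, the libraries come from different pigs. Fold changes are S100a1 over hrLuc on the log2(normalized count + 0.5) scale, ± the standard error. Only genomic spans and no transcript lengths were at hand, so expression levels are compared between libraries and not between genes. Where counts of different genes are set side by side below, as shares of a sum or of an overlapping row, they are amounts of reads only.

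None of the 10 proteoglycan genes passed an adjusted p of 0.05 in limma, where 0.0128% of all genes tested did (2 genes) and 0.00639% did with a lower mean in S100a1. All 10 had a lower fitted mean in S100a1, with log2 fold changes from -0.45 (FMOD) to -0.05 (OGN) and a median of -0.15, against a median of -0.02 and 56.5% negative over all 15661 genes. At an unadjusted p under 0.05 there were 2 members, FMOD and LUM, where 8.26% of all genes were below it and 4.57% were below it with S100a1 lower. Their groups did not overlap in 1 member, LUM, where 9.27% of all genes had separated groups and 5.31% had them with S100a1 lower. On the recovered reads edgeR, limma-voom and DESeq2 each called 0 members, where edgeR called 0.0128% of all genes (2), limma-voom 0% and DESeq2 0.568% (89). The sign of the smaller differences rested on single pigs: 7 members were negative without hrLuc replicate 1, 7 without S100a1 replicate 1, 8 without hrLuc replicate 2, 9 without S100a1 replicate 3, and 10 without each of the other 3 libraries. The median was -0.10 without hrLuc replicate 1 and also -0.10 without S100a1 replicate 1.

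**Figure D1:**
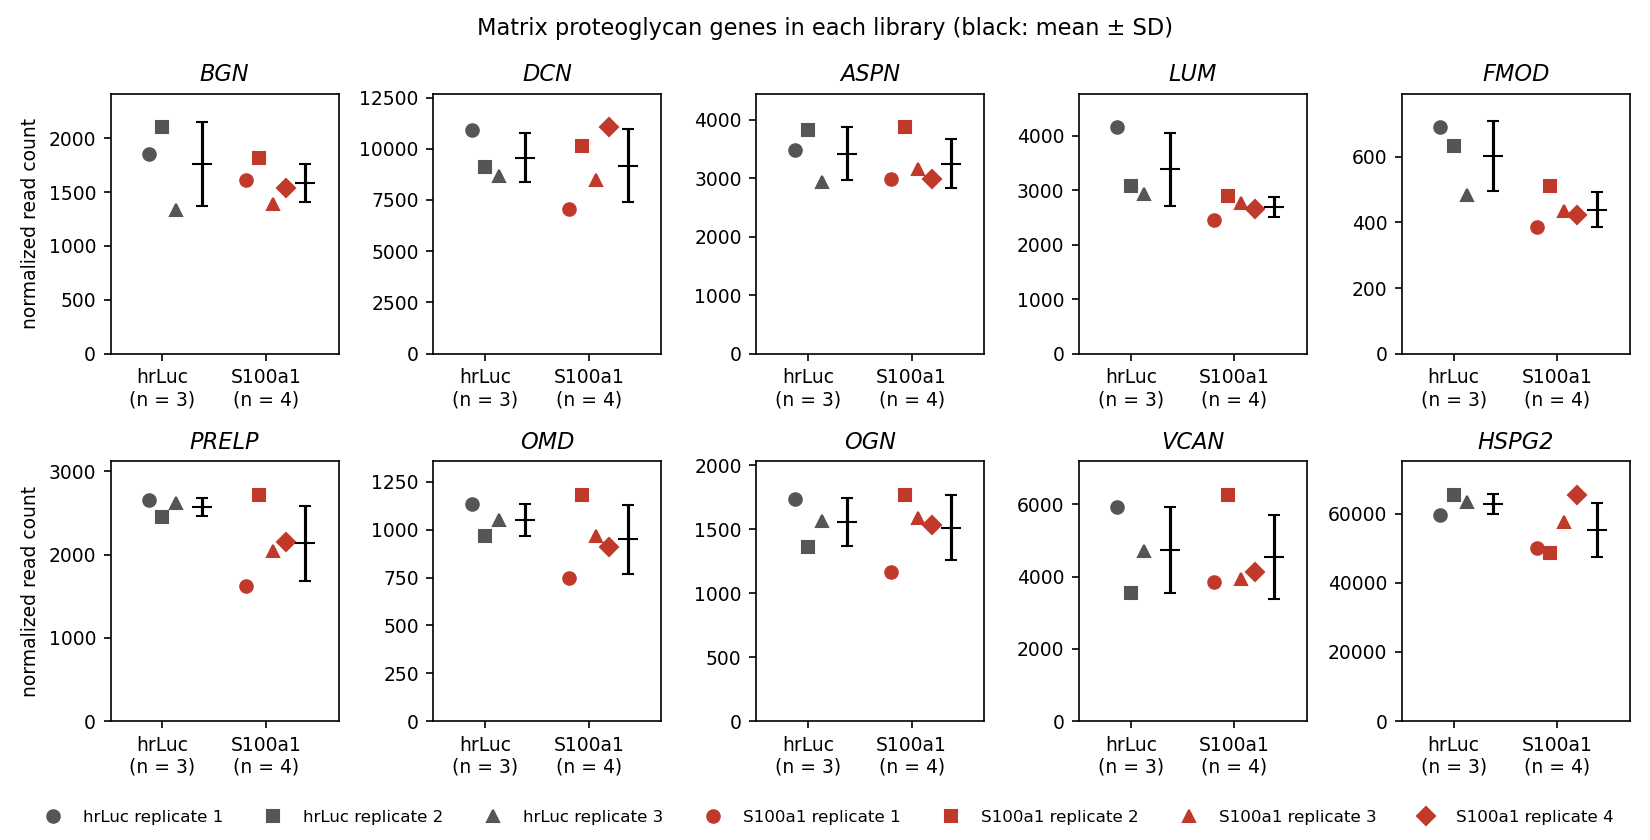
Normalized read count (vertical axis, from 0) of each proteoglycan gene in the 3 hrLuc and 4 S100a1 libraries, with 1 symbol per replicate and the mean ± SD in black. LUM is the gene whose groups do not overlap, and S100a1 replicate 1 (circle) is the lowest library in 6 panels.

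The class II genes had log2 fold changes from -0.45 to -0.16. FMOD encodes fibromodulin, which binds type I collagen and limits the width of fibrils. Its normalized counts were 690, 634 and 483 in hrLuc replicates 1 to 3 and 385, 512, 436 and 422 in S100a1 replicates 1 to 4. The groups overlapped through a single pair, since S100a1 replicate 2 lay above hrLuc replicate 3. The means were 602 ± 107 (SD, n = 3) and 439 ± 53.5 (SD, n = 4), which gave -0.45 ± 0.14 on the log2 scale with a 95% confidence interval from -0.77 to -0.12. Its unadjusted p was 0.0127 and its adjusted p 0.535 (limma), which placed it at rank 366 of all genes by p. Leaving out 1 library moved this value between -0.60 (without hrLuc replicate 3) and -0.34 (without hrLuc replicate 1). FMOD had the fewest reads of the members, with a counting error of 5.32% at its lowest library, and its SD between pigs was 17.8% of the mean in hrLuc and 12.2% in S100a1.

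LUM encodes lumican, a keratan sulphate proteoglycan that organizes collagen fibrils and is made by fibroblasts. Its counts in hrLuc replicates 1 to 3 were 4152, 3073 and 2931, and in S100a1 replicates 1 to 4 they were 2461, 2889, 2764 and 2663. Every S100a1 library was below every hrLuc library, although the highest S100a1 value (2889) and the lowest hrLuc value (2931) lay close together and hrLuc replicate 1 stood above the rest. The means were 3385 ± 668 (SD, n = 3) and 2694 ± 181 (SD, n = 4), which gave -0.31 ± 0.12 on the log2 scale (95% confidence interval -0.59 to -0.04), with an unadjusted p of 0.0289 and an adjusted p of 0.568 (limma). Without hrLuc replicate 1 the log2 fold change was -0.16.

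PRELP, whose product has an end rich in proline and arginine that binds heparan sulphate and anchors basement membranes to collagen, was even across the hrLuc pigs and scattered across the S100a1 pigs. It stood at 2654, 2454 and 2625 in hrLuc and at 1627, 2718, 2044 and 2156 in S100a1. The S100a1 group held both the highest and the lowest library, replicates 2 and 1, and the other S100a1 libraries lay below all 3 hrLuc libraries. Its SD was 4.20% of the mean in hrLuc and 21.1% in S100a1, a difference in spread that was not tested. The log2 fold change was -0.29 ± 0.15 (adjusted p = 0.620, limma), and it was -0.42 without S100a1 replicate 2 and -0.17 without S100a1 replicate 1. PRELP overlaps an uncharacterized locus that has no row of its own here. Whether reads of that locus stand in the PRELP count was not tested.

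OMD, osteomodulin, a keratan sulphate proteoglycan first known from bone, showed a like order of libraries. Its counts were 1136, 968 and 1053 in hrLuc and 747, 1182, 965 and 908 in S100a1. Again S100a1 replicates 1 and 2 were the extremes and the groups overlapped. The log2 fold change was -0.16 ± 0.14 (adjusted p = 0.756, limma), and it was -0.05 without S100a1 replicate 1 and -0.27 without S100a1 replicate 2.

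The class I genes had log2 fold changes from -0.13 to -0.07. The difference between the classes was not tested. DCN encodes decorin, which decorates collagen fibrils, binds TGF-beta and restrains several receptor tyrosine kinases. Its counts were 10914, 9127 and 8652 in hrLuc and 7043, 10149, 8495 and 11041 in S100a1. The highest and the lowest library were both S100a1 pigs, replicates 4 and 1. Means of 9565 ± 1193 (SD, n = 3) and 9182 ± 1774 (SD, n = 4) gave a log2 fold change of -0.07 ± 0.15 (95% confidence interval -0.42 to 0.28, adjusted p = 0.906, limma). The sign was positive without S100a1 replicate 1 (0.048) or hrLuc replicate 1 (0.026).

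BGN encodes biglycan, the X-linked relative of decorin, whose soluble form is known to act on Toll-like receptors. Its counts were 1851, 2101 and 1336 in hrLuc and 1611, 1814, 1386 and 1539 in S100a1. The hrLuc group held both extremes, replicates 2 and 3, with all S100a1 libraries between them. The log2 fold change was -0.13 ± 0.15 (95% confidence interval -0.48 to 0.21, adjusted p = 0.820, limma), and single hrLuc pigs moved it from -0.32 (without replicate 3) to 0.0068 (without replicate 2).

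ASPN encodes asporin, a class I member with an aspartate-rich stretch that binds collagen and calcium and opposes TGF-beta. Its counts were 3477, 3831 and 2933 in hrLuc and 2993, 3866, 3155 and 2978 in S100a1. It varied least of the 10, with the highest library 1.32 times the lowest, and the groups covered nearly the same range. The log2 fold change was -0.07 ± 0.12 (95% confidence interval -0.34 to 0.20, adjusted p = 0.881, limma), and it was 0.016 without hrLuc replicate 2.

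OGN encodes osteoglycin (mimecan), a class III member that is abundant in heart and takes part in collagen fibril formation. Its counts were 1737, 1365 and 1566 in hrLuc and 1163, 1770, 1586 and 1534 in S100a1. Apart from S100a1 replicate 1, the lowest, the groups covered much the same range. The log2 fold change was -0.05 ± 0.14 (95% confidence interval -0.37 to 0.27, adjusted p = 0.932, limma), and it turned positive without S100a1 replicate 1 (0.071) or hrLuc replicate 1 (0.033).

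The large proteoglycans differed from each other in which pigs were high. VCAN had counts of 5929, 3543 and 4708 in hrLuc and 3848, 6262, 3931 and 4125 in S100a1. A single pig stood high in S100a1, replicate 2, while the hrLuc pigs were spread over a similar range. VCAN had the widest error of the members, with an SD of 25.2% of the mean in hrLuc and 25.4% in S100a1. Its log2 fold change was -0.06 ± 0.21 (95% confidence interval -0.53 to 0.41, adjusted p = 0.946, limma), and it was positive without hrLuc replicate 1 (0.12), S100a1 replicate 1 (0.013) or S100a1 replicate 3 (0.0023) and -0.25 without hrLuc replicate 2.

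HSPG2 had counts of 59473, 65395 and 63490 in hrLuc and 50023, 48475, 57501 and 65291 in S100a1. Among the S100a1 pigs, 3 lay below all hrLuc pigs and replicate 4 lay near the top. The means were 62786 ± 3023 (SD, n = 3) and 55322 ± 7726 (SD, n = 4), which gave -0.19 ± 0.12 on the log2 scale (95% confidence interval -0.47 to 0.09, adjusted p = 0.674, limma). The sign was negative with each library left out, from -0.27 (without S100a1 replicate 4) to -0.13 (without S100a1 replicate 2). HSPG2 overlaps LDLRAD2, whose count was 4.51% to 5.12% of that of HSPG2 in each library.

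The precision of the comparison can be read from the intervals. The 95% confidence intervals of the 10 members, none of them adjusted for multiple testing, ran from -0.77 (the lower bound of FMOD) to 0.41 (the upper bound of VCAN) on the log2 scale. A 2-fold difference in either direction, 1 on this scale, lay outside each interval, and 8 of the 10 intervals included 0. In the authors' deposited table, all 10 members also had a negative log2 fold change and 0 had an adjusted p under 0.05, where 0.728% of the genes tested here did. The smallest adjusted p among the members in the authors' deposited table was 0.177, for FMOD, and the second was 0.339, for LUM.

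**Figure D2:**
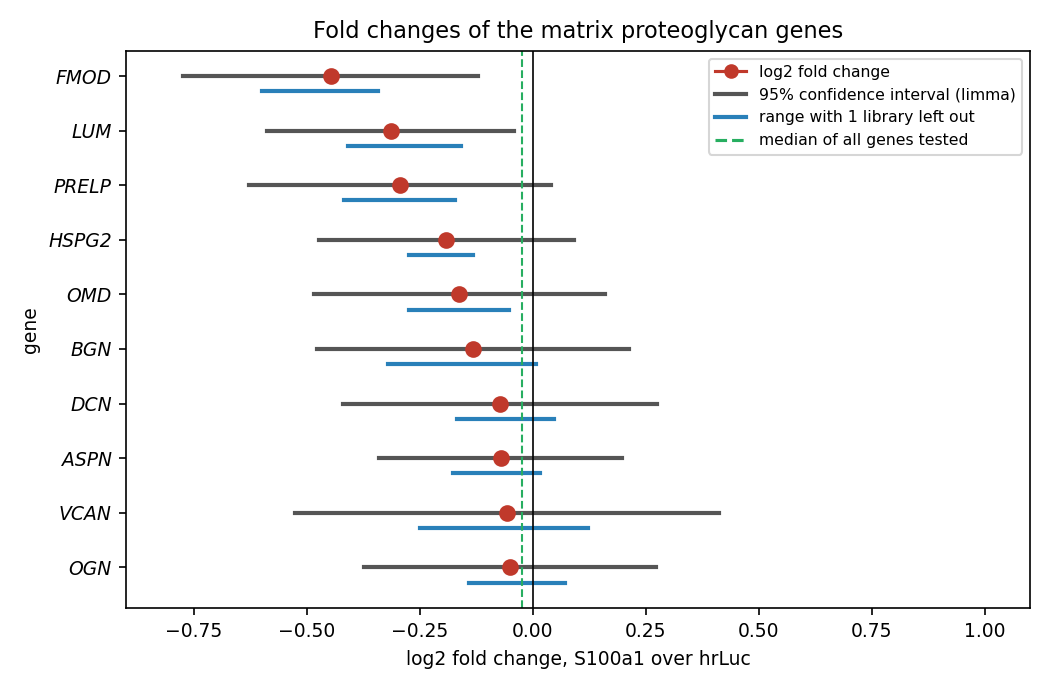
Log2 fold change of S100a1 over hrLuc for each proteoglycan gene (points), with its 95% confidence interval (grey), the range when a library is left out (blue) and the median of all genes tested (dashed). Points run from -0.45 for FMOD to -0.05 for OGN, and 8 of the 10 intervals include 0.

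Deviations shared by most members followed single pigs. In hrLuc replicate 1 all 10 were above their own mean of the 7 libraries, by 0.03 to 0.49 on the log2 scale (mean 0.25). In S100a1 replicate 1 all 10 were below it, by 0.03 to 0.49 (mean -0.29), and 6 members had their lowest value there. S100a1 replicate 2 went against its group: 8 members were above their mean (mean 0.15), and 5 (ASPN, OGN, PRELP, OMD and VCAN) had their highest value there. In S100a1 replicates 3 and 4 the mean deviations were -0.11 and -0.05, with 1 and 3 members above their mean. HSPG2 and LUM were the exceptions in S100a1 replicate 2: HSPG2 had its lowest value there, 0.26 below its mean, and LUM was 0.03 below.

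Likeness between members was measured as the root mean square difference of their mean-centred log2 values over the 7 libraries, with no test. OGN and OMD were the closest pair (0.082), followed by PRELP and OMD (0.088), BGN and ASPN (0.12) and LUM and FMOD (0.13). VCAN and HSPG2 were the farthest apart (0.39). Position in the genome matched this order in part. On Sscrofa11.1, OGN (chromosome 3, 42116521 to 42135940) and OMD (42142603 to 42155032) are neighbours 6662 bases apart, and ASPN (42165553 to 42192902) lies 10520 bases beyond OMD. DCN (chromosome 5, 91678601 to 91713925) and LUM (91748871 to 91756381) are 34945 bases apart with no gene between them, yet DCN was closest to OGN (0.14) and LUM to FMOD. FMOD (chromosome 9, 64062995 to 64073853) and PRELP (64190978 to 64207008) are neighbours too, and each was closest to a gene on another chromosome. BGN lies on chromosome X (124282048 to 124295450), VCAN on chromosome 2 (91682177 to 91811674) and HSPG2 on chromosome 6 (79849691 to 79958283).

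Among 11737 other genes with a symbol whose mean reached 100 normalized counts, those nearest to the average profile of the 10 members were ALDH1L2, a mitochondrial folate enzyme (0.038), CCT6A, a chaperonin subunit (0.044), ZBTB18, a transcriptional repressor (0.048), CDK4, a cell cycle kinase (0.049), and TUBA1A, a tubulin (0.053). Their log2 fold changes lay between -0.21 and -0.12, and the smallest adjusted p was 0.636 (limma). These genes were picked on the same libraries, so fold changes near those of the members follow from the choice. ALDH1L2 and TUBA1A overlap other loci.

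OGN, OMD and ASPN lie inside the span of CENPP, a centromere protein gene (chromosome 3, 42053074 to 42309745), together with ECM2, another leucine-rich matrix gene. The CENPP row held 12196 to 14263 normalized counts, and the 4 nested genes together made up 89.5% to 90.7% of that number in each library. The remainder was 1193 to 1422 in the 7 libraries. The sources used here do not say how reads were assigned to transcript rows, so reads of these 3 members can also stand in the CENPP row. All 17 transcript rows of HSPG2 held identical values.

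The list of fibroblast markers had its extremes in the pigs where the members deviated together, hrLuc replicate 1 and S100a1 replicate 1. The list of 14 tested fibroblast genes, which shares no gene with the members, was on average 0.35 above its mean in hrLuc replicate 1 (14 of 14 genes above) and 0.42 below it in S100a1 replicate 1 (1 of 14 above). Its summed level was 131583 to 152714 in hrLuc and 84052 to 136742 in S100a1, and none of the 14 was at 0 in every library. COL1A1, COL1A2 and COL3A1 made up most of these sums (36544, 26043 and 68975 in hrLuc replicate 1) and are also in the list of collagens below. All 14 genes of the list were negative, at a median log2 fold change of -0.24, and 0 passed the threshold (5 at an unadjusted p under 0.05, all lower). Over all genes tested, 56.5% were negative, 4.57% were below that p with S100a1 lower and 0.0128% passed. The list was drawn up with earlier results of these data known. SERPINF1, which encodes a secreted antiangiogenic factor and overlaps SMYD4, was at -0.69, and MFAP4, a microfibril protein that overlaps MAPK7, was at -0.50. Activated fibroblast markers summed to 26608 to 30031 in hrLuc and 22837 to 25848 in S100a1, with a median of -0.28 and 11 of 13 negative. COL8A1 (-0.51, overlapping an uncharacterized locus) and CILP (-0.77) had the smallest p there. In S100a1 replicate 2, where ASPN, OGN, PRELP, OMD and VCAN were highest, the fibroblast list was 0.02 below its mean. The activated list was 0.22 below its mean there, and this was its lowest library, with S100a1 replicate 1 at 0.16 below. The part of fibroblast content in the members' values was not tested. In bulk tissue, fewer cells of a type and less RNA per cell cannot be told apart.

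**Figure D3:**
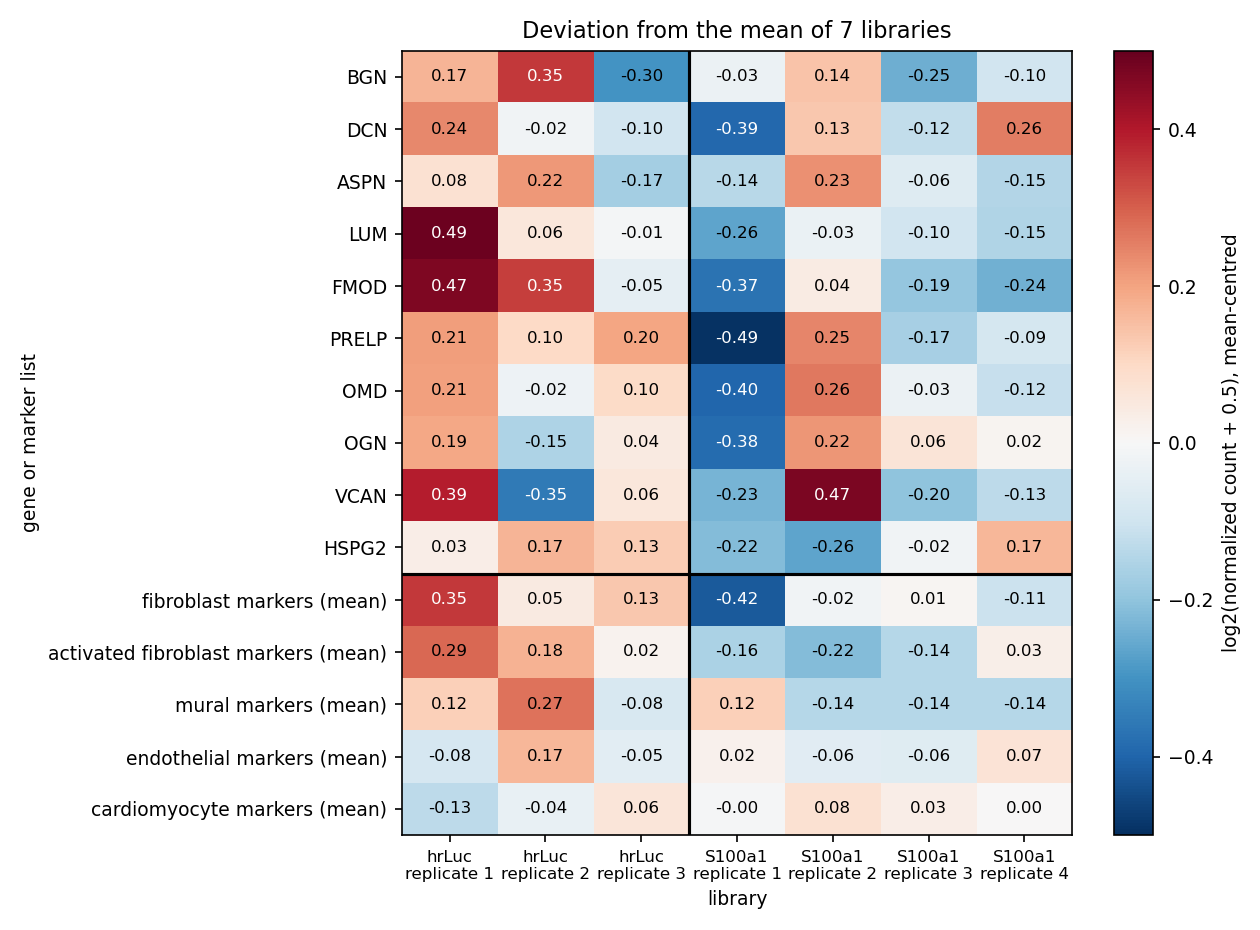
Deviation of each library (columns) from the mean of the 7 libraries, on the log2 scale, for the proteoglycan genes (upper rows) and for the mean of marker lists (lower rows), with the value in each cell. The hrLuc replicate 1 column is positive and the S100a1 replicate 1 column negative for all 10 genes, and the fibroblast row has its extremes in the same columns.

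The other cell type lists had 0 genes past the threshold, where 0.0128% of all genes tested passed it and 56.5% were negative. Cardiomyocyte markers had 3 of 10 negative and a median of 0.07 (RYR2 0.42, PLN 0.16, both overlapping other loci). Endothelial markers had 9 of 12 negative and a median of -0.06 (TEK 0.29, overlapping another locus, and FLT1 0.31), and mural markers had 8 of 11 negative and a median of -0.24 (MCAM -0.24, overlapping CBL, and CSPG4 -0.24). For tendon, cartilage and bone markers, whose cells also make OMD and ASPN, 7 of 8 were negative, with a median of -0.14 (SPP1 -0.64, and CNMD -0.11, overlapping SUGT1) and a summed level of 1285 to 1338 in hrLuc and 1007 to 1454 in S100a1. Macrophage markers had 6 of 11 negative and a median of -0.16 (LYZ -1.47 ± 0.68, with 111 ± 129 counts (SD, n = 3) in hrLuc, and CD163 0.32). T and natural killer cell markers had 9 of 11 negative and a median of -0.71 (CD5 -1.11, CD4 -0.80). Adipocyte markers had 2 of 6 negative and a median of 0.11 (FABP4 0.30, LPL -0.13), and the 2 mesothelial genes tested, 1 of them negative, had a median of -0.02 (WT1 -0.37 and UPK3B 0.33, both overlapping other loci).

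The genes that make, trim and bind these proteoglycans were followed through 9 lists, which hold 162 tested genes besides the members. Of these, 0 passed the threshold in limma, 26 had an unadjusted p under 0.05 and 104 were negative. Over all genes tested the shares were 0.0128%, 8.26% and 56.5%. Collagens and fibre proteins bound by the small proteoglycans had the most negative median, -0.24, with 12 of 14 negative. The 5 genes at an unadjusted p under 0.05 were all lower, where 4.57% of all genes were below that p with S100a1 lower. COL1A1, COL1A2 and COL3A1 of this list are also in the fibroblast list, and LOX and FN1 are in the activated fibroblast list. Other genes that stand in both a pathway and a cell type list include PCOLCE, TNC, CCN2, CHAD, ACAN, KDR and CD14. The medians of such lists are therefore not separate observations. ELN, elastin, had 3993 ± 698 counts (SD, n = 3) in the luciferase group against 2641 ± 484 (SD, n = 4) in the other, or -0.60 ± 0.15 on the log2 scale (adjusted p = 0.514, limma), and COL6A2, a chain of the beaded-filament collagen that biglycan and decorin bind, was at -0.26. COL1A1, the main chain of type I collagen, had counts of 36544, 30299 and 28806 in hrLuc and 17559, 20614, 30134 and 27094 in S100a1, so that S100a1 replicate 1 was the lowest library for it as for DCN, LUM and FMOD. COL1A1 was at -0.44 ± 0.18 (adjusted p = 0.576, limma), while its partner DCN was at -0.07 ± 0.15. Among the other chains shared with the fibroblast list, COL1A2 was at -0.37 ± 0.18 (adjusted p = 0.615, limma). COL3A1 was closer to DCN, at -0.22 ± 0.19 (adjusted p = 0.756, limma). It had 69314 and 71165 counts in S100a1 replicates 3 and 4, above its highest hrLuc library (68975). The differences between these genes were not tested.

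For the sugar chains, chondroitin and dermatan sulphate synthesis had 19 of 24 negative and a median of -0.10, with the sulphotransferase CHST12 (overlapping LFNG) at -0.27 and the polymerizing factor CHPF at -0.22. Keratan sulphate synthesis, which builds the chains of lumican and fibromodulin, had 5 of 6 negative and a median of -0.19, with the chain-extending B3GNT7 (overlapping another locus) at -0.91 and the sulphotransferase CHST1 at -0.40. Heparan sulphate synthesis and editing, which bears on perlecan, was split evenly, with 11 of 22 negative and a median near 0 (-0.0021). HS3ST1, a sulphotransferase, had a mean of 29.6 ± 6.93 counts (SD, n = 3) in the luciferase group against 83.9 ± 24.3 (SD, n = 4) in the other without overlap of the groups (log2 fold change 1.47 ± 0.29, adjusted p = 0.394, limma), and SULF2, which removes sulphate from heparan chains, was at -0.36.

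Other matrix proteoglycans had 9 of 18 negative and a median of 0.01, an even split of directions. SPOCK2 was at -0.45 ± 0.14 and SPOCK3 at 0.49 ± 0.16, both testican proteoglycans of the extracellular matrix. Hyaluronan and versican partners had 14 of 21 negative and a median of -0.06, with the hyaluronan receptor HMMR (overlapping NUDCD2), which is also a mitotic gene, at -0.88 and tenascin C (TNC), which binds versican, at -0.69. HAPLN2, a link protein, was at 0 in every library. Proteases and inhibitors had 12 of 19 negative and a median of -0.16, with the versican-cleaving protease gene ADAMTS20 at 0.65 ± 0.15 and TLL2, of the family that trims the biglycan propeptide, at -0.75 ± 0.25. Their groups did not overlap, and their adjusted p were 0.462 and 0.541 (limma). Basement membrane partners of perlecan had 11 of 15 negative and a median of -0.11, with nidogen 2 (NID2) at -0.36 ± 0.09 and ECM1 (overlapping TARS2) at -0.41. Receptors and growth factors bound by the proteoglycans had 11 of 23 negative and a median of 0.03, with VEGFA, which overlaps a transfer RNA gene, at 0.24 ± 0.06 and TGFB3 at -0.45 ± 0.15, which overlaps IFT43.

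**Figure D4:**
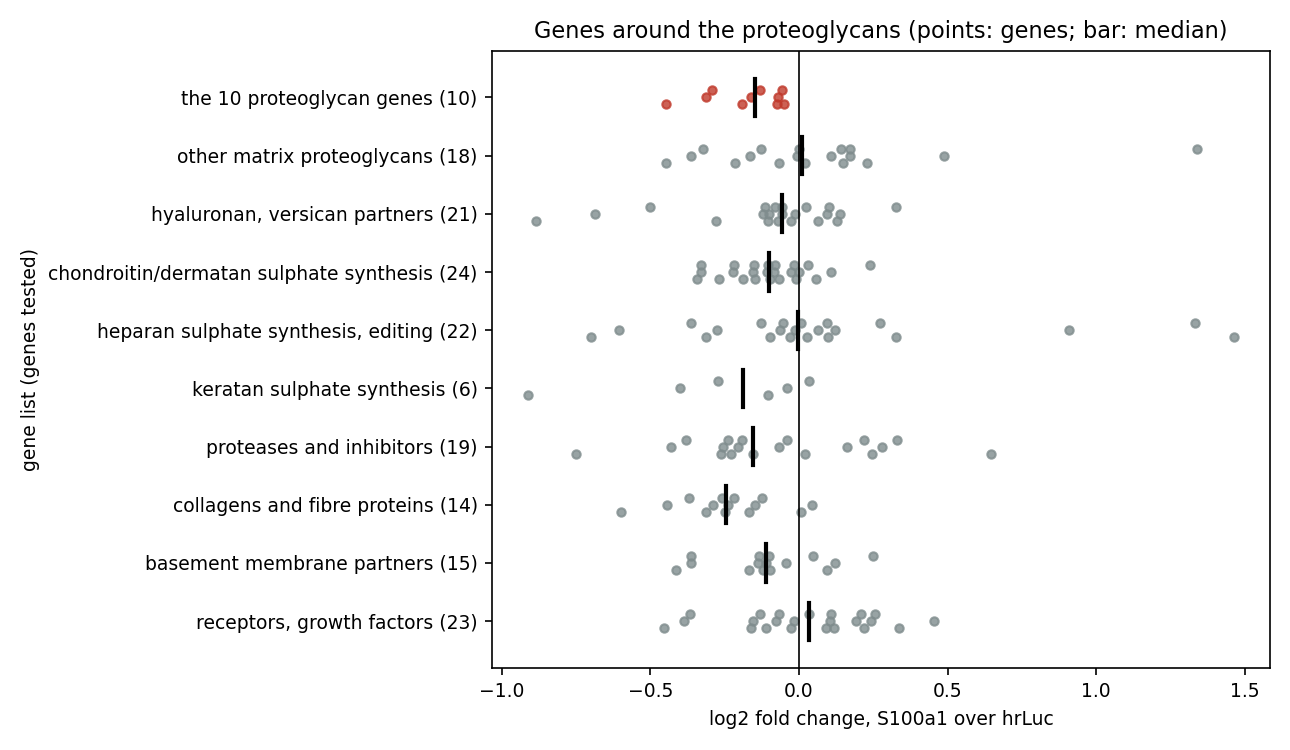
Log2 fold change of S100a1 over hrLuc (horizontal axis) of the 10 proteoglycan genes (red) and of the tested genes of 9 lists around them (grey), with the median of each as a black bar. The members' median is -0.15, and the list medians run from -0.24 for collagens and fibre proteins to 0.03 for receptors and growth factors.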

How the data were processed

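RNA sequencing libraries were made from total RNA with depletion of ribosomal RNA, per the labels' protocols. Tools listed in the submitters' processing notes, without their roles, are DESeq2 1.33.1, FastQC 0.11.8 and R 4.1.2, with the build Sscrofa11.1. The sources used here do not state the aligner, counter or strand handling. The deposited values are a signal, read counts per transcript row divided by the authors' size factor for each library. Whole reads were recovered, since 100% of values in every library came out whole within 0.01 read. The deposited log2 fold change, the deposited fold ratio and the deposited adjusted p-value are the authors' own and were copied as such. All 63562 rows matched RefSeq genes of Sscrofa11.1.

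Normalized counts of the highest row per gene, kept with at least 10 in at least 3 libraries, were tested as log2(value + 0.5) with limma 3.58.1 (mean-variance trend, R 4.3.3, two-sided, no covariates, 5 residual degrees of freedom, Benjamini-Hochberg over 15661 genes, threshold 0.05). The design had named edgeR for raw counts and this branch for normalized values. edgeR 4.0.16, DESeq2 1.42.0 and limma-voom were run on recovered reads as alternatives, and the fit was tested on simulated data. Each limma p-value sets the difference between the groups against the spread between these pigs. That spread was moderated toward a trend over all genes, with 3.842 prior degrees of freedom. Gene lists are described by counts and medians, without set tests, and 1 cell type list is not reported here. Named were the members, per list the genes past the threshold or else the 2 of smallest p, and the 5 nearest profiles. COL1A1, COL1A2, COL3A1, the genes beside the members on the chromosome and S100A1 were added by hand. The members and lists were chosen with earlier results of these data known.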

Additional observations from a re-analysis of the deposited data

Results flagged for a closer look

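Single libraries of the S100a1 group that stood apart from the other 3 were looked for in 55 named genes, by the gap to the nearest library divided by the range of the group against Dixon's 95% critical value for 4 samples. The ratio was taken on normalized counts, not on the log2 scale of the fit, where it can differ. Chance gives a ratio above the critical value for about 1 in 20 groups of normally distributed values, and 4 genes had one. Groups of 3, such as hrLuc, were not tested. VCAN was the 1 member among them: S100a1 replicate 2 had 6262 normalized counts and the others 3848 to 4125 (gap over range 0.885). In the same library CD163, a scavenger receptor of macrophages, had 2400.0 normalized counts against 1202 to 1393 in the others (0.841). In S100a1 replicate 1 MCAM, an adhesion molecule of mural and endothelial cells, had 2510.4 against 2029 to 2095 (0.863), and UPK3B, a mesothelial marker, had 33.9 against 23.3 to 24.7 (0.87).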

How the results depend on the processing

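The number of members past the threshold was 0 under each of the 21 alternatives that give it, and their median log2 fold change ran from -0.21 to -0.10 over the main and 20 alternative fits. With single libraries left out, the number of all genes past the threshold ran from 0 to 3 and the median of the members from -0.21 (without S100a1 replicate 2) to -0.10. Of all genes, 89 passed with DESeq2, 0 with limma-voom and 1 with median centring. Signs turned only with a library left out: without hrLuc replicate 1 for DCN (0.026), OGN (0.033) and VCAN (0.12), without hrLuc replicate 2 for BGN (0.0068) and ASPN (0.016), without S100a1 replicate 1 for DCN (0.048), OGN (0.071) and VCAN (0.013), and without S100a1 replicate 3 for VCAN (0.0023). The other ends of these ranges were -0.18 for ASPN and -0.32 for BGN (both without hrLuc replicate 3), -0.17 for DCN (without S100a1 replicate 4), and -0.14 for OGN and -0.25 for VCAN (both without hrLuc replicate 2). The count of negative members was planned for the main fit, and its repeat under the alternative fits was added after seeing the data. With the replicate number of the titles as a block, 0 genes and 0 members passed. S100a1 replicate 4 has no hrLuc library of its number, so the members' log2 fold changes equalled those without it (FMOD -0.43 in both). The block also left fewer residual degrees of freedom, so that fit had little power to call a gene. The numbers mark no shared litter or batch in the labels, and deviations of same-numbered libraries correlated at -0.0222, -0.0749 and 0.0823 across genes, so they were not taken as pairs. The counting error of the members was at most 5.32% in a library; whether depth limited the comparison was not tested.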

Other observations

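Related genes that lie beside the members on the chromosomes were also read. ECM2, which follows ASPN on chromosome 3 (42205246 to 42243746), had 5257 to 5902 normalized counts in hrLuc and 5921 to 6750 in S100a1, with no overlap between the groups and 0.14 ± 0.07 on the log2 scale (adjusted p = 0.626, limma), whereas OGN, OMD and ASPN were each negative. KERA, keratocan, best known from cornea, lies beyond LUM on chromosome 5 (91794317 to 91802362) and had 7.86 to 61.1 counts, with S100a1 replicates 4 and 2 as the extremes. EPYC, epiphycan of cartilage, had 0.873 to 17.0 counts on the same chromosome. OPTC, opticin of the eye, which follows PRELP on chromosome 9 (64211477 to 64220982), had at most 0.941 counts.

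A shorter OGN row, the RefSeq transcript NM_001315728, held 48.6% to 51.6% of the reads of the row used, with hrLuc replicate 3 lowest and S100a1 replicate 2 highest. The smallest VCAN row held 98.3% to 99.2% of the largest.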
